A study of Mus musculus with 2 samples.

Results

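The genes of the TNF and NF-κB pathway examined here in mouse liver RNA were the ligands *Tnf* and *Il1b*, the receptors *Tnfrsf1a* and *Tnfrsf1b*, the subunits *Nfkb1*, *Nfkb2*, *Rela* and *Relb*, and the inhibitors *Nfkbia* and *Tnfaip3*. They were chosen by name, and all 10 were found among the 45777 gene symbols of the deposited table, with 28 annotated transcripts. Both groups were C57BL/6 mice on a high-fat diet (HFD), started at 7 weeks of age and continued for 18 weeks, and each received an adeno-associated virus by retro-orbital injection in week 13 of the diet. The AAV-GFP group overexpressed green fluorescent protein and served as the control. The AAV-*Wee1-AS* group overexpressed *Wee1-AS*, a long noncoding RNA from the strand opposite to *Wee1*. The *Wee1-AS* vector was of the AAV9 serotype with a CMV promoter, which is not restricted to hepatocytes. One poly-A RNA library per group was analysed, although the design text counts 4 liver samples. The comparison therefore has no replicate check, and no p-value is given.

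TNF is a cytokine made mainly by macrophages and other immune cells, and its receptor TNFR1 (*Tnfrsf1a*) is present on most liver cells. Binding of TNF or IL-1β to their receptors activates the IκB kinases, which mark the inhibitor IκBα for destruction and release NF-κB dimers to the nucleus. The dimers induce inflammatory and survival genes, among them their own inhibitors *Nfkbia* and *Tnfaip3*, so that the pathway limits itself. In the canonical branch the dimer is p50 (from *Nfkb1*) with RELA, and in the noncanonical branch p52 (from *Nfkb2*) with RELB.

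The table gives, for each library, estimated read counts, which were summed per gene, and TPM, a level corrected for transcript length and scaled to the same total in each library. Counts totaled 55466182 with AAV-GFP and 48079335 with AAV-*Wee1-AS*. Ratios, AAV-*Wee1-AS* over AAV-GFP, were taken on scaled counts, and each carries an exact 95% interval that covers counting error only. Of all genes, 15857 had at least 10 counts in a library, and all 10 pathway genes were among them. The log2 ratio was lower in transcripts of higher GC content (Spearman rho -0.673 across 14995 genes, which are not independent replicates). Ratios of the 10 genes are therefore also given after lowess trends on GC content and on length were subtracted. They are then called trend-removed, and their counting intervals are shifted by the same amount. Defining markers of hepatocytes were present, at a summed level of 82940 TPM with AAV-GFP and 92180 TPM with AAV-*Wee1-AS* over 8 genes.

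Of the 10 genes, 8 had a log2 ratio below 0 and 2 above it, with a median of -0.745. The median over all tested genes was -0.016. The difference was past 2-fold only for *Relb* and *Nfkb2*, both lower with AAV-*Wee1-AS*, against 8.71% of all genes lower past 2-fold. None of the 10 was higher past 2-fold, against 22.2% of all genes. Seen against counting error, 7 genes had an interval wholly below 0 (38.0% of all genes) and *Nfkb1* alone had one wholly above 0 (39.1% of all genes). The lower end of the *Nfkb1* interval was only 0.012. The log2 ratio of this gene was 0.135, and 0.077 when counts were scaled by library totals. The upper quartile scaling placed 14.1% of all genes below 0.5-fold and 18.5% above 2-fold, and put *Tnfrsf1a* and *Tnfrsf1b* past 2-fold too.

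**Figure D1:**
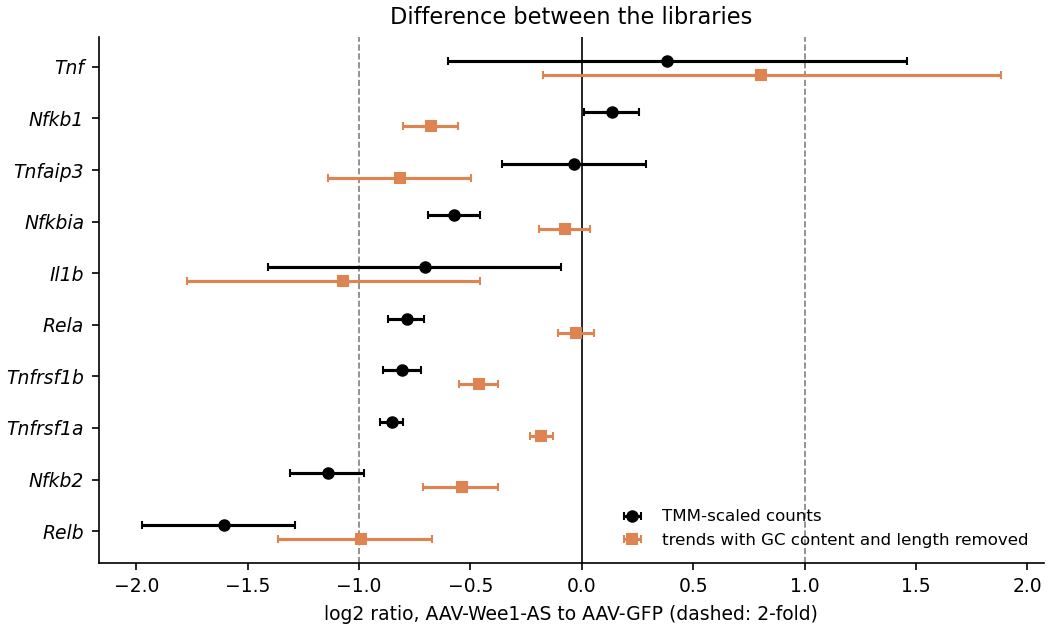
Log2 ratio (AAV-*Wee1-AS* over AAV-GFP) for each gene (x axis, 1 library per group), from scaled counts (black circles) and with the trends with GC content and length removed (orange squares). Bars are 95% counting intervals and dashed lines mark 2-fold. *Relb* has the lowest ratio (-1.61), and *Nfkb1* passes from 0.13 to -0.68 when the trends are removed.

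With the trends removed, the median of the 10 genes was -0.501, with 9 below 0, against -0.001 over all genes. Only *Il1b* was then lower past 2-fold, against 8.53% of all genes lower and 7.39% higher. By the shifted intervals, 7 of the 10 genes were wholly below 0, against 33.7% of all genes, and none wholly above it, against 33.3%. The genes that made up these 7 were partly others. *Rela* and *Nfkbia* had intervals that included 0 once the trends were removed, while those of *Nfkb1* and *Tnfaip3* came to lie below it.

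The levels spanned a wide range. In the AAV-GFP library the order was *Tnfrsf1a* (135.5 TPM), *Rela* (43.7), *Nfkbia* (33.1), *Tnfrsf1b* (20.6), *Nfkb2* (9.89), *Nfkb1* (8.22), *Relb* (4.59), *Il1b* (1.38), *Tnfaip3* (1.27) and *Tnf* (0.303). *Il1b* and *Tnfaip3* were the only neighbours in that order whose counting intervals overlapped. In the AAV-*Wee1-AS* library *Nfkb1* (8.94 TPM) stood above *Nfkb2* (4.16 TPM), and *Tnfaip3* (1.195 TPM) above *Il1b* (0.608 TPM). The intervals of *Relb* and *Tnfaip3*, and of *Il1b* and *Tnf*, overlapped there. No spread between mice could be set beside these orders.

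**Figure D2:**
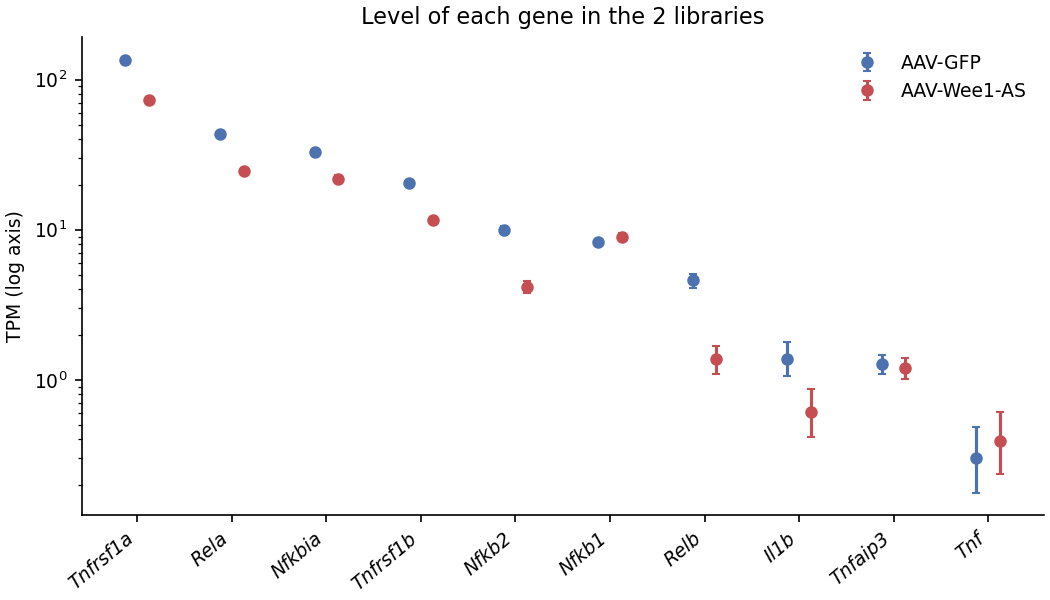
Level of each gene in TPM (log axis) in the AAV-GFP library (blue) and the AAV-*Wee1-AS* library (red), ordered by the AAV-GFP level. Bars are 95% Poisson counting intervals and there is 1 library per group. The receptor *Tnfrsf1a* is the most abundant (135.5 and 73.7 TPM) and *Tnf* the least (0.303 and 0.391 TPM).

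The ligands were at the lower end. *Tnf*, which encodes the membrane-bound precursor of TNF (chromosome 17, 35199367 to 35202007, minus strand, build mm10), had 17 counts with AAV-GFP and 19 with AAV-*Wee1-AS*. Its log2 ratio was 0.38 (-0.60 to 1.46), so a difference of 2-fold upward lay within counting error, and none was detectable at this depth. The lymphotoxin genes beside it, *Lta* and *Ltb*, had 2 and 2 and 53 and 31 counts. *Il1b*, which encodes the precursor of IL-1β (chromosome 2, 129364569 to 129371164, minus strand), had 62 counts with AAV-GFP and 31 with AAV-*Wee1-AS*. Its log2 ratio was -0.70 (-1.41 to -0.092), and the trend-removed value was -1.07 (-1.77 to -0.46). The antisense transcript annotated over it, *Il1bos*, is listed at 0 counts in both libraries. On the TPM scale the *Tnf* to *Il1b* ratio was 0.219 with AAV-GFP and 0.643 with AAV-*Wee1-AS*, and the counting interval of the change in the count ratio was 0.947 to 5.27 and included 1.

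Both TNF receptors were lower with AAV-*Wee1-AS* and stood in a similar proportion to each other in both libraries. *Tnfrsf1a*, the receptor that carries a death domain (chromosome 6, 125349723 to 125362483, plus strand), had 9619 counts with AAV-GFP and 4431 with AAV-*Wee1-AS*, a log2 ratio of -0.85 (-0.91 to -0.80). *Tnfrsf1b*, which encodes TNFR2 and is found mainly on immune and endothelial cells (chromosome 4, 145212368 to 145246870, minus strand), had 3332 and 1586 counts, a log2 ratio of -0.81 (-0.89 to -0.72). *Tnfrsf1a* stood 6.58 times above *Tnfrsf1b* in TPM with AAV-GFP and 6.37 times with AAV-*Wee1-AS*, and the change in their count ratio was 0.968 (0.902 to 1.04). With the trends removed, the receptors differed more from each other, at -0.18 (-0.23 to -0.13) for *Tnfrsf1a* and -0.46 (-0.55 to -0.38) for *Tnfrsf1b*. The GC content of the *Tnfrsf1a* transcript was 55.9%, in a GC decile whose median log2 ratio was -0.61.

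Of the canonical subunits, *Rela* was lower while *Nfkb1* was nearly level. *Rela*, the subunit with the main transactivation domain of the canonical dimer (chromosome 19, 5637442 to 5648134, plus strand), had 3763 counts with AAV-GFP and 1816 with AAV-*Wee1-AS*, a log2 ratio of -0.79 (-0.87 to -0.71). *Nfkb1*, the source of p105 and p50 (chromosome 3, 135584655 to 135691969, minus strand), had 1126 and 1030 counts, a log2 ratio of 0.13 (0.012 to 0.26). The *Nfkb1* to *Rela* ratio in TPM was 0.188 with AAV-GFP and 0.365 with AAV-*Wee1-AS*, a change in the count ratio of 1.895 (1.71 to 2.1). The pair also differed in base composition, and the cause of their contrast was not tested. The *Rela* transcript has a GC content of 59.4%, in a GC decile with a median log2 ratio of -0.69, and that of *Nfkb1* has 44.9%, in one with a median of 0.72. The trend-removed values stood in the opposite order, at -0.024 (-0.11 to 0.056) for *Rela* and -0.68 (-0.80 to -0.56) for *Nfkb1*.

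The noncanonical subunits had the lowest ratios of the 10 before trend removal, and with the trends removed *Il1b* was lowest and 4 genes lay below *Nfkb2*. *Relb*, which encodes the partner of p52 (chromosome 7, 19606217 to 19629438, minus strand), had 337 counts with AAV-GFP and 91 with AAV-*Wee1-AS*. Its ratio was 0.328, a log2 ratio of -1.61 (-1.98 to -1.29), and it was the only one of the 10 whose counting interval lay wholly below 0.5-fold. Its log2 ratio lay above that of 3.08% of all tested genes, and the trend-removed value was -0.99 (-1.36 to -0.67). *Nfkb2*, the source of p100 and p52 (chromosome 19, 46300994 to 46312400, plus strand), had 1066 and 402 counts, a log2 ratio of -1.14 (-1.31 to -0.98) and a trend-removed value of -0.54 (-0.71 to -0.38). *Psd*, which overlaps *Nfkb2* on the other strand, had only 15 and 10 counts. The *Nfkb1* to *Nfkb2* ratio was 0.831 in TPM with AAV-GFP and 2.15 with AAV-*Wee1-AS*, so that the more abundant of the 2 precursors was *Nfkb2* in the control library and *Nfkb1* in the other. The trend-removed log2 ratios of these 2 genes lay close together (-0.68 for *Nfkb1* and -0.54 for *Nfkb2*). Between *Rela* and *Relb*, the TPM ratio was 9.53 with AAV-GFP and 17.9 with AAV-*Wee1-AS*, a change in the count ratio of 1.79 (1.40 to 2.29).

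Among the inhibitors, *Nfkbia* was lower and *Tnfaip3* was close to level. *Nfkbia*, which encodes IκBα, the protein that holds RELA and p50 in the cytoplasm (chromosome 12, 55489409 to 55492647, minus strand), had 1722 counts with AAV-GFP and 964 with AAV-*Wee1-AS*. Its log2 ratio was -0.57 (-0.69 to -0.46), and the trend-removed value was -0.077 (-0.19 to 0.037). *Tnfaip3* encodes A20, an enzyme that edits ubiquitin chains and shuts off signaling from TNFR1 (chromosome 10, 19000910 to 19015410, minus strand). It had 182 and 148 counts, a log2 ratio of -0.034 (-0.36 to 0.29), while the trend-removed value was -0.82 (-1.14 to -0.50). The trend-removed value of *Tnfaip3* rests on an annotated transcript of 6199 bases, while the transcripts with counts have 4337 and 4422 bases. The *Nfkbia* to *Rela* ratio in TPM was 0.758 with AAV-GFP and 0.893 with AAV-*Wee1-AS*, and its counts changed by 1.16 (1.05 to 1.28).

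**Figure D3:**
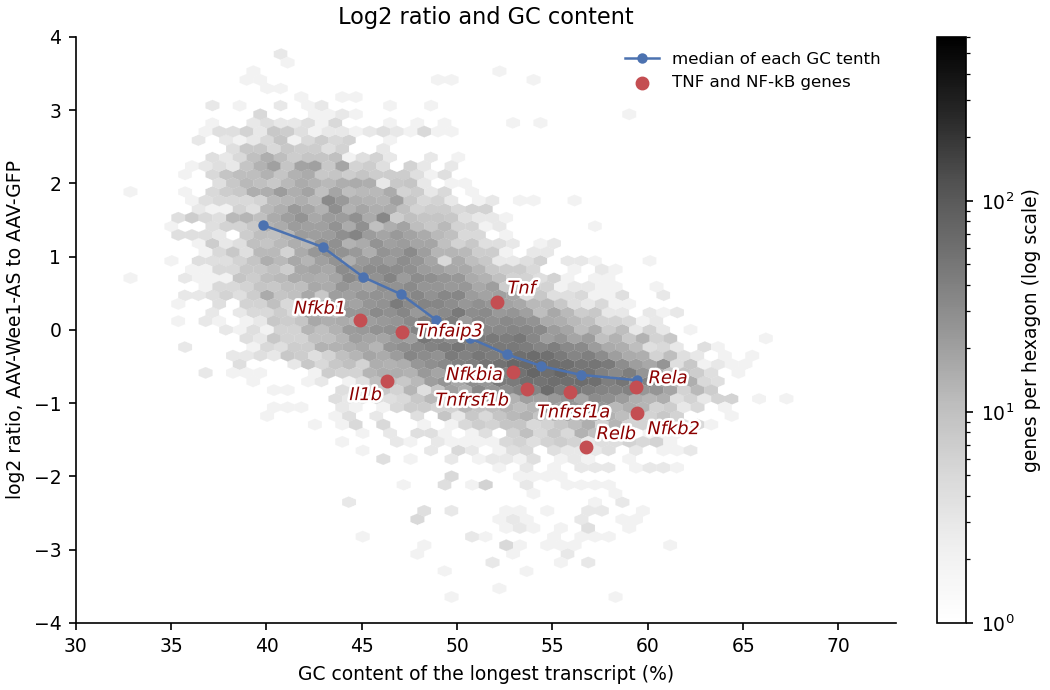
Log2 ratio, AAV-*Wee1-AS* over AAV-GFP (y axis, drawn from -4 to 4) against the GC content of the longest annotated transcript in percent (x axis). Grey hexagons count all tested genes within the axes, blue points are the medians of 10 equal groups by GC content and red points are the 10 pathway genes. *Il1b* (46.3%, -0.70) and *Relb* (56.8%, -1.61) lie farthest below the blue line, and *Rela* (59.4%, -0.79) lies near it.

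The GC content of the 10 genes ran from 44.9% (*Nfkb1*) to 59.4% (*Nfkb2*). In the GC decile that holds *Rela* and *Nfkb2*, 20.6% of genes were lower past 2-fold and 1.2% higher. The decile that holds *Nfkb1* had 3.07% lower and 38.1% higher. Within their own deciles, *Relb* (-1.61) and *Nfkb2* (-1.14) lay below the lower quartiles of -0.87 and -0.93, and *Il1b* (-0.70) below that of -0.086. *Tnfrsf1b* (-0.81) lay below its lower quartile of -0.75, while *Rela* (-0.79), *Nfkbia* (-0.57) and *Tnfrsf1a* (-0.85) lay within the quartiles of theirs. *Tnfaip3* (-0.034) and *Nfkb1* (0.13) lay just above their lower quartiles of -0.086 and 0.10. *Tnf* (0.38) lay above its upper quartile of 0.059. With 1 library per group, the treatment and a difference between libraries in the recovery of fragments by GC content cannot be told apart.

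Transcript estimates differed more than the gene sums. With at least 10 counts in each library, 6 of the 10 genes had 2 or more measured transcripts, and in 4 of these 6 the most abundant transcript was not the same in both libraries. The same held for 26.9% of 9014 genes. The estimates share reads out among transcripts that overlap along most of their length, so the values below are shares assigned by the quantification and not reads seen on 1 transcript alone. For *Tnfaip3*, NM_001166402 had 182 counts with AAV-GFP and 6 with AAV-*Wee1-AS*, while NM_009397 had 0 and 142. The pair starts at different sites, NM_001166402 at 19011963 and NM_009397 at 19015410. For *Relb*, NM_009046 went from 309 counts to 8 and made up 92.6% and 8.59% of the gene's TPM. The predicted transcript XM_006539675, which starts further inside the gene, had 13 counts with AAV-GFP and 82 with AAV-*Wee1-AS*.

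For *Rela*, the lower sum came from transcripts other than NM_009045, which had 1968 counts with AAV-GFP and 1756 with AAV-*Wee1-AS*. NM_001365067, annotated over the same span, had 1253 and 28, and the predicted XM_006531694 had 537 and 0. When each gene was represented only by the transcript with the highest mean FPKM, the log2 ratio of *Rela* was 0.099 in place of -0.79 and that of *Nfkb1* was 0.34. By the same choice it was -4.30 for *Tnfaip3* (NM_001166402), -4.72 for *Relb*, -2.60 for *Il1b* and -1.90 for *Nfkb2*, so the values of these genes depend on which transcript is read. In *Nfkb2*, all 4 transcripts had a lower TPM with AAV-*Wee1-AS*, with NM_001177369 going from 538 counts to 119 and NM_019408 from 313 to 146. In *Nfkb1*, NM_008689 held most of the level in both libraries, with 946 and 995 counts, and XM_006501106 had 180 and 35. The 62 counts of *Il1b* with AAV-GFP were all assigned to NM_008361, and with AAV-*Wee1-AS* 7 of 31 were, the other 24 going to XM_006498795.

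**Figure D4:**
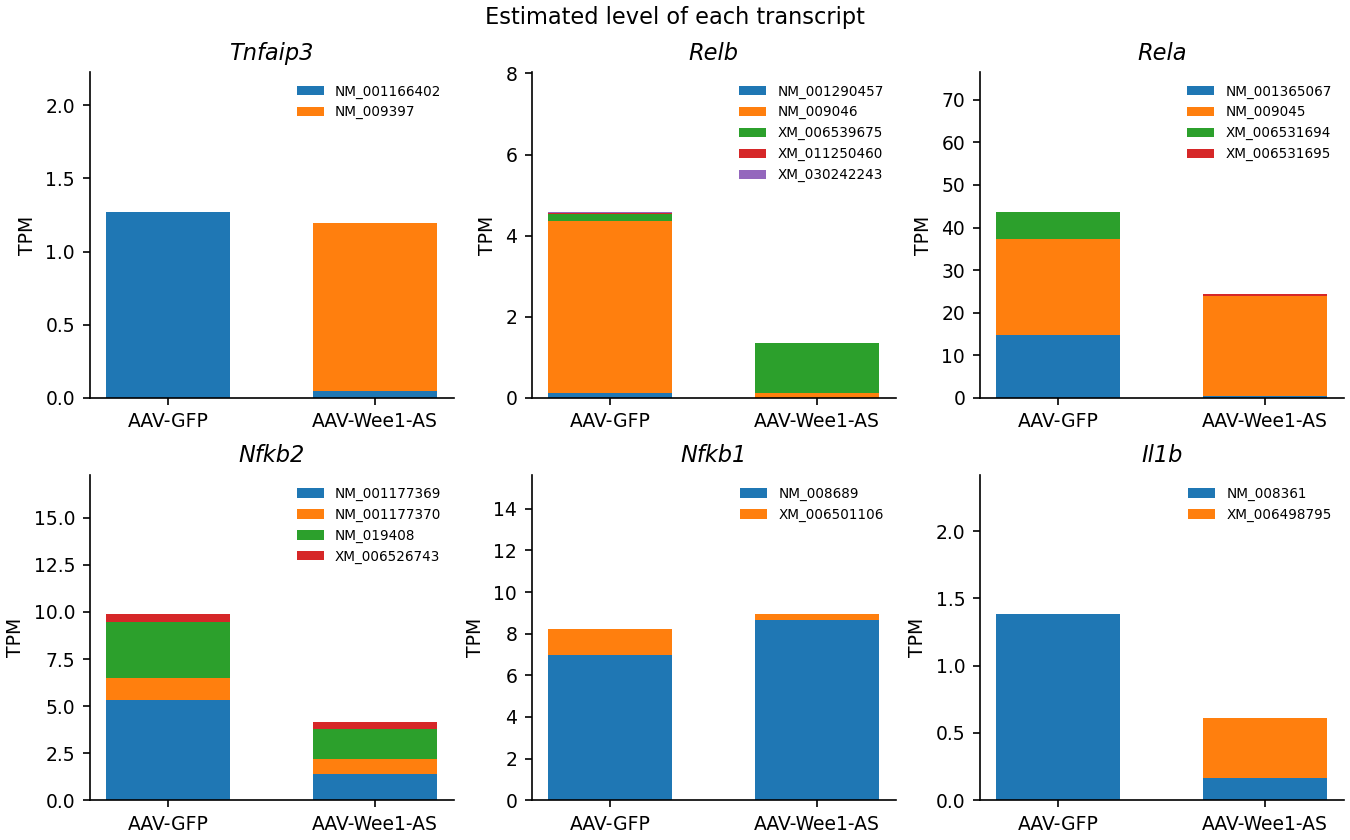
Estimated level in TPM (y axis, from 0) of each measured transcript of 6 genes, stacked by transcript, in the AAV-GFP and AAV-*Wee1-AS* libraries (1 each). In *Tnfaip3* the gene level is similar (1.272 and 1.195 TPM) with a different transcript in each library, and in *Rela* the level of NM_009045 is similar (22.4 and 23.6 TPM).

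Promoters are shown for the 3 genes in which a match to the κB consensus was found, *Tnfaip3*, *Nfkb2* and *Nfkbia*, as the 250 bases before a start site. For *Tnfaip3* the window before the other start site, which has no match, is shown too, since most counts lay at a different start in each library. The sequences are from RefSeq on GRCm38.p6, the assembly of mm10. Each runs 5′ to 3′ on the strand of the gene and ends at the base before the start site. Capitals mark matches to the consensus, the 10-base element that NF-κB dimers bind, searched on both strands.
*Tnfaip3*, NM_009397, chr10:19015411-19015660, minus strand: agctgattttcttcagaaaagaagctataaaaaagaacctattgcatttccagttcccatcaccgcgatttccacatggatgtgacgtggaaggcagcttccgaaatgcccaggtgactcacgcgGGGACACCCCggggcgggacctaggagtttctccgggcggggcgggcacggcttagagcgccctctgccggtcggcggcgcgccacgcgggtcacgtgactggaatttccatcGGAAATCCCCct
*Tnfaip3*, NM_001166402, chr10:19011964-19012213, minus strand: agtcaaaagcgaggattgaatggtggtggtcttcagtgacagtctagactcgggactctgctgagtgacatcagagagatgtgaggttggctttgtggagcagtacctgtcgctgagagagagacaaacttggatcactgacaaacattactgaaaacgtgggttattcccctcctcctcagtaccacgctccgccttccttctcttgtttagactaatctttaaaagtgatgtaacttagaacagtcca
*Nfkb2*, NM_001177369, chr19:46304487-46304736, plus strand: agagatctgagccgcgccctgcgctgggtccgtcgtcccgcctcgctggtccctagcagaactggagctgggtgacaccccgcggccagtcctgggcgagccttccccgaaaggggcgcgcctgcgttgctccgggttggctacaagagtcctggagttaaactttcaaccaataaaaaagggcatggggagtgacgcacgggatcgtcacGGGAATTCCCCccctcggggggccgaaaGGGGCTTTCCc
*Nfkbia*, NM_010907, chr12:55492648-55492897, minus strand: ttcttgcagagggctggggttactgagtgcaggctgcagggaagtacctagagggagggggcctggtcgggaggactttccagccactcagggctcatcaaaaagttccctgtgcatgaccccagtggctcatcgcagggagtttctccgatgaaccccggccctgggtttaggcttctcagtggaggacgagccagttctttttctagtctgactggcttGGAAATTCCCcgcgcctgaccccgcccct

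The consensus was matched in 5 of 11 promoters of 8 of the 10 genes, those with a promoter in the table, and in 3.90% of the 32851 promoters of the same length. No match was found in those of *Tnf*, *Il1b*, *Tnfrsf1a*, *Tnfrsf1b* and *Rela*. This covers only the 250 bases before the start site, and sequence further upstream was not searched. In the *Nfkb2* promoter shown the matches began at bases -39, -38 and -11, counted back from the start site, and the first 2 overlap. Its promoters not shown had 1 match each, at -236 before NM_019408 and at -225 before NM_001177370. In *Nfkbia* it began at -29, and upstream of NM_009397 of *Tnfaip3* at -125 and -12. The window before NM_001166402 of *Tnfaip3*, the start assigned all 182 counts with AAV-GFP, held no match, which says only that these letters are not in this window. A match is a description of the sequence and no evidence of binding in these livers.

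The genes between the receptors and NF-κB had medians near 0 or above it, and all of these except that of the IκB kinases changed sign with the scaling, trend or transcript used. Of the 6 other REL and IκB genes, *Rel*, the subunit c-Rel of lymphoid cells, had 77 counts with AAV-GFP and 238 with AAV-*Wee1-AS*, a log2 ratio of 1.86 (1.52 to 2.28). *Nfkbiz*, an inducible nuclear IκB protein, had 113 and 281, a log2 ratio of 1.56 (1.26 to 1.91). The cytoplasmic inhibitors *Nfkbib* (1233 and 668 counts) and *Nfkbie* (237 and 120) and the nuclear cofactor *Bcl3* (1088 and 655) were lower, at -0.62, -0.71 and -0.47. *Nfkbid* had 24 and 25 counts. With the trends removed, the ratio stayed above 2-fold for *Nfkbiz* (1.48), and was 0.26 for *Rel* and 1.04 for *Nfkbid*. *Nfkbib* (0.16) and *Bcl3* (0.37) changed sign on that scale, and *Nfkbie* was at -0.11. The median of the 6 was -0.085, and it changed sign between settings.

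Among the 12 genes of the TNF receptor 1 complex, 5 were higher past 2-fold and none lower, against 22.2% and 8.71% of all genes, with a median log2 ratio of 0.12. The highest were *Birc2*, the ubiquitin ligase cIAP1 (173 and 682 counts, 2.23), and *Cflar*, which blocks caspase-8 (1205 and 3431 counts, 1.77). The lowest were *Traf2*, the adaptor that recruits the cIAP proteins (893 and 402 counts, -0.88), and *Rbck1*, a subunit of the linear ubiquitin ligase (4394 and 2110 counts, -0.79). With the trends removed, 1 of the 12 was past 2-fold, *Birc2* at 1.26, where 7.39% of all genes were higher. *Cflar* (0.56) was then within 2-fold, *Rbck1* was near 0 (-0.017), and *Traf2* (-0.84) was close to its first value. The 9 kinases and partners that act on IκB had a median of 0.44, with 4 higher past 2-fold (22.2% of all genes) and none lower. After trend removal 1 was higher, *Tab2* (1.02), and 1 lower, *Ikbkg* (-1.04), against 7.39% and 8.53% of all genes. *Chuk*, which encodes IKKα, had 1395 and 3729 counts (1.68) and *Tab3* had 52 and 253 (2.497), while *Map3k14*, the kinase NIK of the noncanonical branch, had 225 and 109 (-0.77) and *Tab1* had 283 and 176 (-0.42). *Chuk* has a GC content of 41.3%, and its trend-removed value was 0.48. Those of *Tab3* (0.91) and *Map3k14* (-0.23) were nearer to 0 as well, and *Tab1* (0.29) changed sign.

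Of the 14 tested genes of the IL-1 arm, 4 were higher past 2-fold and 2 lower, with a median of 0.14, where all genes had 22.2% higher and 8.71% lower. *Il1rap*, the shared coreceptor, had 2300 and 5429 counts (1.502), and *Il1a*, the ligand IL-1α, had 72 and 159 (1.38). The 2 lower genes were *Il1rn*, the receptor antagonist (600 and 246 counts, -1.02), and *Nlrp3*, the inflammasome sensor (84 and 34 counts, -1.003). After trend removal none was higher past 2-fold and 1 was lower, *Il1rn*, against 7.39% and 8.53% of all genes. Its trend-removed value was -2.09, and those of *Il1rap*, *Il1a* and *Nlrp3* were 0.23, 0.32 and -0.97. Of 10 further inhibitors, 3 were higher past 2-fold and 1 lower, against 22.2% and 8.71% of all genes (median 0.46). *Cyld*, a deubiquitinase, had 209 and 965 counts (2.46) and *Tax1bp1*, an A20 partner, 1709 and 5150 (1.85), while *Tnip1*, the A20-binding protein ABIN1, had 1102 and 454 (-1.01) and *Otulin* 2174 and 1448 (-0.32). After trend removal, none of these 10 was lower past 2-fold and 1 was higher, against 8.53% and 7.39% of all genes. That gene was *Tnip2* (1.04), which was not among the 3 higher before. *Cyld* (0.97), *Tax1bp1* (0.46) and *Tnip1* (-0.31) were within 2-fold, and *Otulin* (0.25) changed sign.

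The genes that release TNF from the cell surface were split. *Adam17*, the protease that cuts TNF free, had 277 counts with AAV-GFP and 764 with AAV-*Wee1-AS* (1.72), and *Rhbdf2* and *Rhbdf1*, which carry it to the surface, had 830 and 325 (-1.09) and 737 and 333 (-0.88). *Timp3*, its inhibitor, had 1448 and 1609 counts (0.42). The trend-removed values were 0.89, -0.51, -0.54 and -0.21. Only 5 of 11 other TNF superfamily ligands reached 10 counts. *Tnfsf12*, which encodes TWEAK, had 1028 and 468 counts (-0.87), *Tnfsf10*, which encodes TRAIL, 132 and 260 (1.23), and *Ltb*, *Tnfsf13* and *Tnfsf13b* had intervals that included 0. The trend-removed values of *Tnfsf12* (-0.091) and *Tnfsf10* (-0.027) were near 0, and that of *Tnfsf13b*, with 15 and 8 counts, was -1.75.

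Other receptors of the family and genes known to be induced through NF-κB were lower in the median. Of 10 tested receptors, 4 were lower past 2-fold and 1 higher, against 8.71% and 22.2% of all genes, with a median of -0.80 (-0.63 trend-removed). *Tnfrsf12a*, the TWEAK receptor Fn14, had 632 and 119 counts, a log2 ratio of -2.13 (-2.44 to -1.86) and a trend-removed value of -1.36. *Tnfrsf10b*, the TRAIL receptor, had 85 and 14 counts (-2.20, trend-removed -2.31), and *Ltbr*, the lymphotoxin β receptor, 9214 and 4362 (-0.81, trend-removed -0.010). *Fas* was higher, with 390 and 776 counts (1.25), but within 2-fold with the trends removed (0.55). *Tnfrsf14* had 503 and 467 counts (0.16, -0.028 to 0.34) and a trend-removed value of 0.74. Among the 8 receptors with at least 10 counts in both libraries, 3 were lower past 2-fold and 1 higher, against 6.13% and 20.9% of all genes so filtered, and the median was -0.69 (-0.29 trend-removed). *Tnfrsf25* had 11 counts and 0, which is at least 3.05-fold lower when the 0 is read as up to 3 counts. That bound takes the 11 counts as exact, and the counting interval of its log2 ratio ended at -1.06.

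Of 24 tested genes of the NF-κB-induced list, 11 were lower past 2-fold and 2 higher, with a median of -0.81, and with the trends removed 11 were lower and none higher, with a median of -0.80. All genes tested had 8.71% lower and 22.2% higher on the first scale, and 8.53% and 7.39% on the second. However, 5 of the 11 lower genes (*Ccl3*, *Ccl4*, *Cxcl2*, *Nos2* and *Sele*) reached 10 counts only with AAV-GFP, and so passed the filter only through the library where they were high. Of the 19 that reached 10 counts in each library, 6 were lower past 2-fold and 2 higher, against the same 6.13% and 20.9%, and the median was -0.33. With the trends removed, 7 of these 19 were lower past 2-fold and none higher, with a median of -0.40. The shares on that scale, 8.53% and 7.39%, are of all genes without this stricter filter. *Gadd45b*, a stress-response gene, had 106 counts with AAV-GFP and 12 with AAV-*Wee1-AS*, a log2 ratio of -2.71 (-3.88 to -2.02) and a trend-removed value of -1.96. *Ccl2*, which attracts monocytes, had 72 and 10, a log2 ratio of -2.39 (-3.70 to -1.62) and a trend-removed value of -3.04. The higher genes were *Xiap*, a caspase inhibitor (509 and 2496 counts, 2.55, with a trend-removed value of 0.75 at a GC content of 36.8%), and *Cxcl1*, which attracts neutrophils (230 and 468 counts, 1.28, trend-removed 0.68). *Saa1*, the acute phase protein with the highest level of the list, had 658 TPM and 809 TPM, and shares reads with its near copy *Saa2* (417.9 and 419.3 TPM), so their split is uncertain. *Sele* had 12 counts and 0, at least 3.33-fold lower by the same reading, and its counting interval ended at -1.21. *Il6* and *Ptgs2* had no counts in either library. In these liver libraries a count of 0 allows up to 3 counts.

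**Figure D5:**
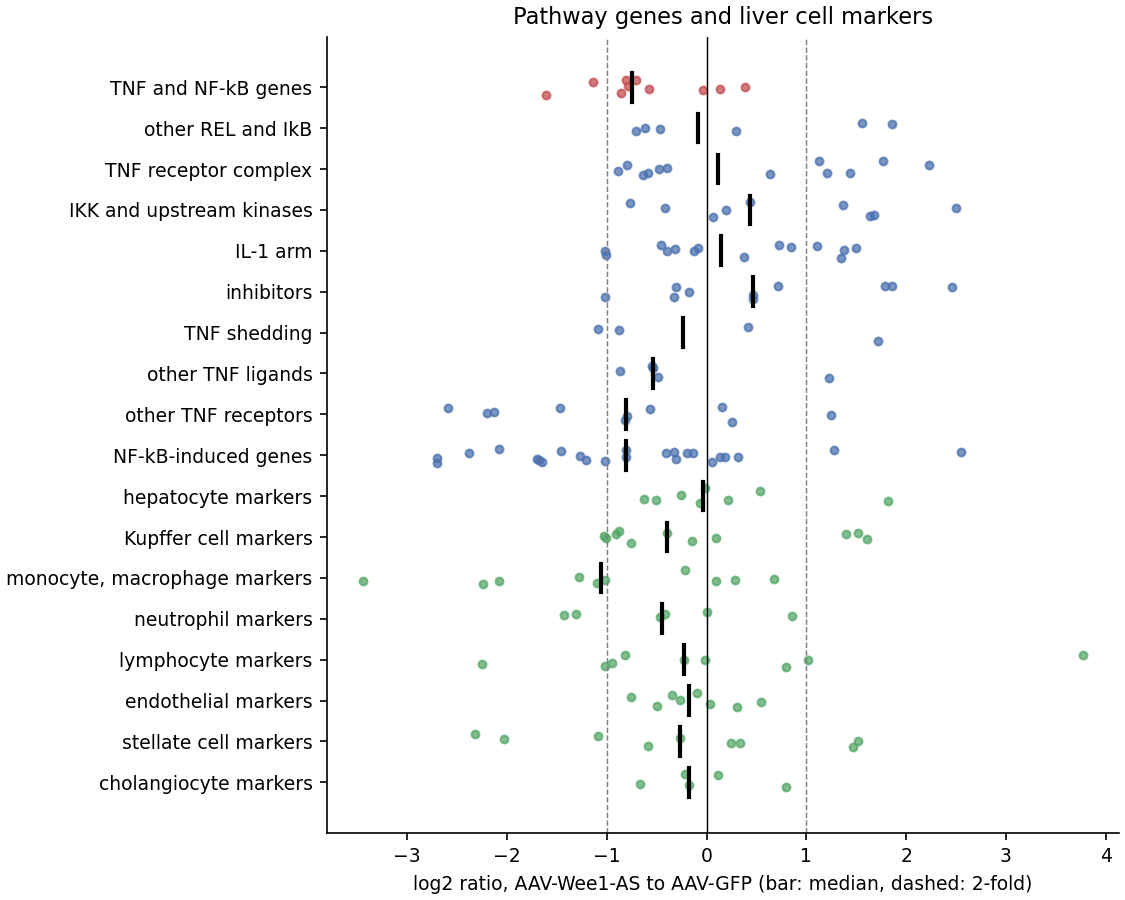
Log2 ratio, AAV-*Wee1-AS* over AAV-GFP (x axis) of each tested gene in the 10 pathway genes (red), 9 lists of further pathway genes (blue) and 8 lists of liver cell markers (green). Black bars are medians and dashed lines mark 2-fold. The medians are -0.745 for the 10 genes, -0.81 for the NF-κB-induced genes (-0.33 for those with at least 10 counts in both libraries) and -1.06 for the monocyte and macrophage markers.

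Markers of immune cells differed between the libraries beside these genes. In bulk tissue, fewer cells of a type and less RNA per cell cannot be told apart. The 10 monocyte and macrophage markers had a summed level of 167.6 TPM with AAV-GFP and 128.7 TPM with AAV-*Wee1-AS*, and 6 of them were lower past 2-fold, against 8.71% of all genes (median -1.06, trend-removed -1.17). These included *Gpnmb* (831 and 62 counts), *Itgax* (421 and 73) and *Trem2* (322 and 62), which mark lipid-associated macrophages. Log2 ratios above 0 on scaled counts were found for *Ccr2* (33 and 45 counts, 0.68) and *Lyz2* (2492 and 2217, 0.095), while *Itgam* (97 and 99, 0.29) had an interval that included 0 and *Spp1* had 1900 and 1365 counts (-0.21). In the same order, their trend-removed values were -0.93, 0.0095, -0.038 and -1.02. On that scale 7 of the 10 were lower past 2-fold, against 8.53% of all genes. The 11 Kupffer cell markers summed to 926.9 and 580.0 TPM and were mixed. *C1qb* (6209 and 2563 counts) and *C1qc* (5591 and 2283) were lower past 2-fold, *Vsig4* (649 and 1550), *Timd4* (175 and 388) and *Marco* (162 and 414) were higher past it (22.2% of all genes were), and *Clec4f*, which defines resident Kupffer cells, had 7220 and 5418 counts. Only *Marco* (2.22) of the 11 was past 2-fold with the trends removed, where 7.39% of all genes were higher and 8.53% lower, and *C1qb* (-0.26), *C1qc* (-0.27), *Vsig4* (0.89) and *Timd4* (0.73) were not. Of 8 neutrophil markers, 6 were tested and 2 were lower past 2-fold, against 8.71% of all genes. The sums were 15.1 and 7.99 TPM, and *Ly6g* was at 0 in both libraries. *Camp* (7 and 12 counts), 1 of the 6, reached 10 counts only with AAV-*Wee1-AS*. The B cell marker *Ms4a1* had no counts with AAV-GFP and 23 with AAV-*Wee1-AS*. The 8 hepatocyte markers were mixed, with 3 above 0, 5 below and a median of -0.038, and their higher sum came from *Alb* (37460 and 53290 TPM). The part of these cell populations in the lower values of *Il1b*, *Tnfrsf1b* and *Relb* was not tested.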

How the data were processed

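Stranded poly-A libraries of liver RNA, 1 per group, were sequenced as paired-end reads. The submitters' processing notes name Trimmomatic 0.38, HISAT2 2.1.0, SAMtools 1.9, StringTie 2.1.3b and the build mm10. The authors deposited estimated counts (not normalized), FPKM and TPM per RefSeq transcript. Within a library the deposited counts follow FPKM times length over a constant, with fractions raised to the next whole number for 97.2% (AAV-GFP) and 97.0% (AAV-*Wee1-AS*) of the transcripts checked. Whether counting used strand, and whether mice were pooled, is not given in the sources used here.

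Estimated counts were summed per gene symbol and scaled by TMM (edgeR 4.0.16, R 4.3.3; factors 1.02 and 0.980). Log2 ratios used a prior count of 2. Genes below 10 counts in both libraries were left out, and a ratio above 2 or below 0.5 was called past 2-fold. Intervals were Clopper-Pearson for ratios and Poisson for levels, both exact, and they leave out PCR duplication and any spread between mice. A count of 0 was treated as up to 3 counts. GC content and length came from the longest GENCODE M21 transcript (94.6% of tested genes), with lowess trends of span 0.3 (statsmodels 0.14.6). That transcript can differ from those measured. For *Relb* it has 3273 bases, against 2204 for NM_009046 and 2367 for XM_006539675, and for *Tnfrsf1b* 3818 against 4913. The steps were tested on simulated data. The 10 genes and all lists, 9 of pathway genes and 8 of liver cell markers, were chosen with earlier results of these data known. From pathway lists of up to 6 genes all are named. From longer ones the 2 highest and 2 lowest ratios at 50 or more counts in a library, and the highest TPM, are named, and other names were chosen after their values were seen. Alternatives covered scaling (DESeq2 1.42.0 among them), prior count, filter, unit, trend and transcript. *Wee1-AS* itself was not analysed here.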

Additional observations from a re-analysis of the deposited data

How the results depend on the processing

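The median of the 10 genes was below 0 under all 14 alternatives, from -0.947 (upper quartile scaling) to -0.501 (trends with GC content and length removed). The number past 2-fold, 2 in the values reported, was 4 with upper quartile scaling, 0 with FPKM and a pseudocount of 1, 1 with both trends removed and 4 with only the most abundant transcript of each gene, all on the lower side. It was 3 with TPM and a pseudocount of 0.1, which added *Il1b*, and 3 with the length trend removed, which added *Tnfrsf1b*, and 2 under the other alternatives. The share of all genes lower past 2-fold, 8.71% in the values reported, moved with the setting too. It was 14.1% with upper quartile scaling, 1.94% with FPKM, 8.53% with both trends removed and 12.9% with the most abundant transcript. With TPM and a pseudocount of 0.1 it was 8.04%, with the length trend removed 11.2%, and under the others 2.76% to 10.5%. *Nfkb1* changed sign to -0.071 with upper quartile scaling, -0.15 with the length trend removed and -0.68 with both trends removed, and *Rela* to 0.099 with the most abundant transcript. The causes of these changes were not tested. By its arithmetic, a pseudocount pulls the log2 ratios of genes with low values toward 0. Of all genes past 2-fold, 71.9% were higher, against 56.8% with upper quartile scaling, which moved the median of all genes by -0.20, 60.4% with the length trend removed and 46.4% with both removed. FPKM with a pseudocount of 1 called 1029 genes higher and 307 lower, and TPM with a pseudocount of 1 called 1608 and 438, against 3527 and 1381. The median stayed below 0 under every setting for the NF-κB-induced genes (-1.02 to -0.28), the other receptors (-0.99 to -0.24) and the other ligands (-0.72 to -0.049). It stayed above 0 for the IκB kinases (0.025 to 0.44), and changed sign for the remaining lists. Depth limits *Tnf* and *Il1b* most. No paired analysis was possible because each group has 1 library, and for the same reason no library could be left out.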

Other observations

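Markers of the remaining liver cell types had medians closer to 0 than those of monocytes and macrophages. Of 9 stellate cell and fibroblast markers, 2 were higher past 2-fold and 3 lower, against 22.2% and 8.71% of all genes, with a median log2 ratio of -0.27. With the trends removed, none was higher and 4 were lower, against 7.39% and 8.53% of all genes, with a median of -0.89. The 8 sinusoidal endothelial markers had none past 2-fold (median -0.18), nor had the 5 tested cholangiocyte markers (median -0.18). Of all genes, 22.2% were higher and 8.71% lower. With the trends removed, still none of the endothelial markers was past 2-fold (median -0.26). Of the cholangiocyte markers 1 was then lower, *Spp1* (-1.02), against 8.53% of all genes, and their median was 0.087. The 9 lymphocyte markers had a summed level of 6.28 TPM with AAV-GFP and 4.98 TPM with AAV-*Wee1-AS*. Of these, 2 were higher past 2-fold and 2 lower, against 22.2% and 8.71% of all genes (median -0.23). *Ms4a1* (0 and 23 counts) and *Cd8a* (31 and 4) among these passed the filter through 1 library only. Of the 6 markers that reached 10 counts in each library, 1 was higher and 1 lower (median -0.42). All genes so filtered had 20.9% higher and 6.13% lower. The 6 tested neutrophil markers had a median of -0.44 (-0.75 trend-removed).

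Across all tested genes with a promoter in the table, the 627 with a match to the κB consensus in the 250 bases before a start site had a median log2 ratio of -0.163, and the 10939 without one had 0.014. With the trends with GC content and length removed, the medians were 0.002 and 0.003.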
